A study of Rattus norvegicus with 23 samples.

Results

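The genes of mitochondrial and peroxisomal fatty acid oxidation were followed in the heart and the kidney of rats with chronic kidney disease. The set was a list of 33 gene symbols chosen by function from fatty acid uptake to the electron carriers and the regulators. It was drawn up with earlier results of these data known, so shares of members called are not independent of the data. Of the 33 symbols, 32 matched a gene identifier among the 32552 in the count files, and Echs1 is not analysed here. All 32 members passed the filter on low counts in the heart and 30 in the kidney, where Acsl6 and Ucp3 did not.

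Poly(A) RNA was sequenced from snap-frozen heart and kidney of Sprague-Dawley rats aged 13 weeks, 4 weeks after surgery, in 23 libraries. The Sham rats had a sham operation. The NX rats had a 5/6 partial nephrectomy, which removes most of the kidney tissue. The AVF+NX rats had the same nephrectomy plus an end-to-side fistula from the jugular vein to the carotid artery, the kind of vascular access used for haemodialysis. There were 3 libraries of Sham heart and 4 in each of the other groups, all described as biological replicates. No group had a fistula alone, so the fistula can be read only on top of nephrectomy, in AVF+NX against NX. The labels do not say which chamber of the heart or which part of the remaining kidney was taken, or tie a heart to a kidney of one animal.

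Fatty acids enter the cell through carriers such as CD36, are bound by fatty acid binding proteins and are joined to coenzyme A by acyl-CoA synthetases. Carnitine palmitoyltransferase on the outer mitochondrial membrane, a translocase and a further palmitoyltransferase on the inner membrane then bring the acyl chain into the matrix. There a cycle of dehydrogenation, hydration, dehydrogenation and thiolysis shortens the chain by a pair of carbons per turn, and the first dehydrogenation hands its electrons through the electron transfer flavoprotein to the respiratory chain. The working heart and the proximal tubule of the kidney both draw most of their energy from this pathway, and PPAR alpha, PGC-1 alpha and the estrogen-related receptors drive the transcription of its genes.

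The promoters of 4 members are printed because these 4 genes, Etfb, Eci1, Acadm and Acadvl, were lower in AVF+NX hearts against both Sham and NX hearts. Each sequence is the 250 bases before the RefSeq start site on the gene's own strand, in build GRCr8. Capitals mark AGGTCA, the hexamer bound by nuclear receptors, or its reverse complement.
Etfb: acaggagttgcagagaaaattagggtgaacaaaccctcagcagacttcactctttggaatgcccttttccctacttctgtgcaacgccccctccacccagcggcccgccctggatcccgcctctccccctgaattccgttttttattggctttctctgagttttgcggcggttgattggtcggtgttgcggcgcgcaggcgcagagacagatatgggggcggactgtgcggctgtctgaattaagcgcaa
Eci1: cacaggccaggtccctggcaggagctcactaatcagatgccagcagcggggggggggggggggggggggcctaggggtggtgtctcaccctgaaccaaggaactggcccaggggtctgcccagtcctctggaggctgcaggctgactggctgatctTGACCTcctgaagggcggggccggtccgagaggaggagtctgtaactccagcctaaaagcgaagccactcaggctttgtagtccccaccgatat
Acadm: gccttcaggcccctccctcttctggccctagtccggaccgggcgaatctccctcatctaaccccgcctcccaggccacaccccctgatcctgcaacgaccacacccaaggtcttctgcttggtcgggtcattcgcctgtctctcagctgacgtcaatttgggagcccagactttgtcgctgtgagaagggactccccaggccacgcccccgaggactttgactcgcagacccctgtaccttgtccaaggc
Acadvl: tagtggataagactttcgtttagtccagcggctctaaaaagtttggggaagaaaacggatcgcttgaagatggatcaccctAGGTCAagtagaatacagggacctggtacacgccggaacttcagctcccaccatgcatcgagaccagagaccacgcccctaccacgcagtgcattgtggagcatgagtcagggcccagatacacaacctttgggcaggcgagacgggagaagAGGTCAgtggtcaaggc
These windows are chr1:102988249-102988498 on the plus strand for Etfb, chr10:13961000-13961249 on the plus strand for Eci1, chr2:245542865-245543114 on the minus strand for Acadm and chr10:55236706-55236955 on the minus strand for Acadvl. The count files carry coordinates of a build that is not given in the sources used here: Etfb at chr1:98472745-98486976 on the minus strand, Eci1 at chr10:13797562-13810913 on the plus strand, Acadm at chr2:260124418-260148589 on the minus strand and Acadvl at chr10:56619303-56624526 on the minus strand. The strand of Etfb differs between these and RefSeq, so the coordinates were not mixed.

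RefSeq promoters were found for 27 of the 32 members. AGGTCA, on either strand, was in 3 of the 27 windows (Acadvl, Eci1 and Ucp3), against 13.7% of 27457 promoters of the same length. Acadvl held it at 169 and 17 bases before the start and Eci1 at 94 bases. The estrogen-related receptor element TCAAGGTCA, which contains the hexamer, was in 0 of the 27 windows and in 0.368% of all promoters. A direct repeat of AGGTCA with 1 base between the copies is bound by PPAR alpha with its partner. It was in 0 of 27 and in 0.0546% of all. CACGTG, the E-box read by the circadian clock, was in 0 of 27 and in 5.79% of all. These matches describe letters in a short window and say nothing about binding.

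A further window is shown because 2 members share most of it. Hadha and Hadhb encode the alpha and beta subunits of the mitochondrial trifunctional protein and are transcribed away from each other, from start sites 301 bases apart at positions 31907801 and 31907500 of chromosome 6. The window of Hadha, chr6:31907551-31907800 on the plus strand, shares the 200 bases in capitals, chr6:31907551-31907750, with that of Hadhb.
Hadha: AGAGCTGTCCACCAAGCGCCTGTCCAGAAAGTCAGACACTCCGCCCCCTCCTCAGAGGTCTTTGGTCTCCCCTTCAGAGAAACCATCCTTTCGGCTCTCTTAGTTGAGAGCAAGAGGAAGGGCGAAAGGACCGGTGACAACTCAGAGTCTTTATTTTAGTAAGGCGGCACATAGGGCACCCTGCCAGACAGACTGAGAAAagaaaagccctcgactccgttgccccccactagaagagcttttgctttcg
In AVF+NX against Sham hearts Hadhb passed the test and Hadha did not, with the values given below. The difference between the 2 genes was not itself tested.

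Library totals were 9069354 to 12637718 counts in the kidney, except 18782085 in NX library 4. In the heart they were 9894716 to 11866042 in Sham, 9605973 to 22679092 in NX and 11889483 to 48079431 in AVF+NX. AVF+NX libraries 1, 2 and 3 were sequenced much deeper than every Sham heart. AVF+NX library 4, at 11889483, was at about the depth of the deepest Sham heart. The tissues matched their labels: 13 cardiomyocyte markers summed to 84021 to 103800.1 CPM, the count scaled to library depth, in heart and to 20.6 to 31.9 in kidney. In turn, 18 proximal tubule markers summed to 18284 to 37557 CPM in kidney and to 425 to 774 in heart, where Slc22a7 and Slc5a12 were at 0 in every library.

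Transcripts of this pathway made up far more of the heart libraries than of the kidney libraries in Sham rats. Between Sham hearts and Sham kidneys, 28 of 32 members (87.5%) were higher in the heart, where 33.2% of all 15222 genes were, and 2 (6.25%) were higher in the kidney, where 37.9% of all genes were (71.2% in either direction). A gene was called where the adjusted p of edgeR's quasi-likelihood test (Benjamini-Hochberg) was below 0.05, the rule used throughout. The median log2 difference, heart over kidney, was 2.21 over the members and -0.11 over all genes.

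**Figure D1:**
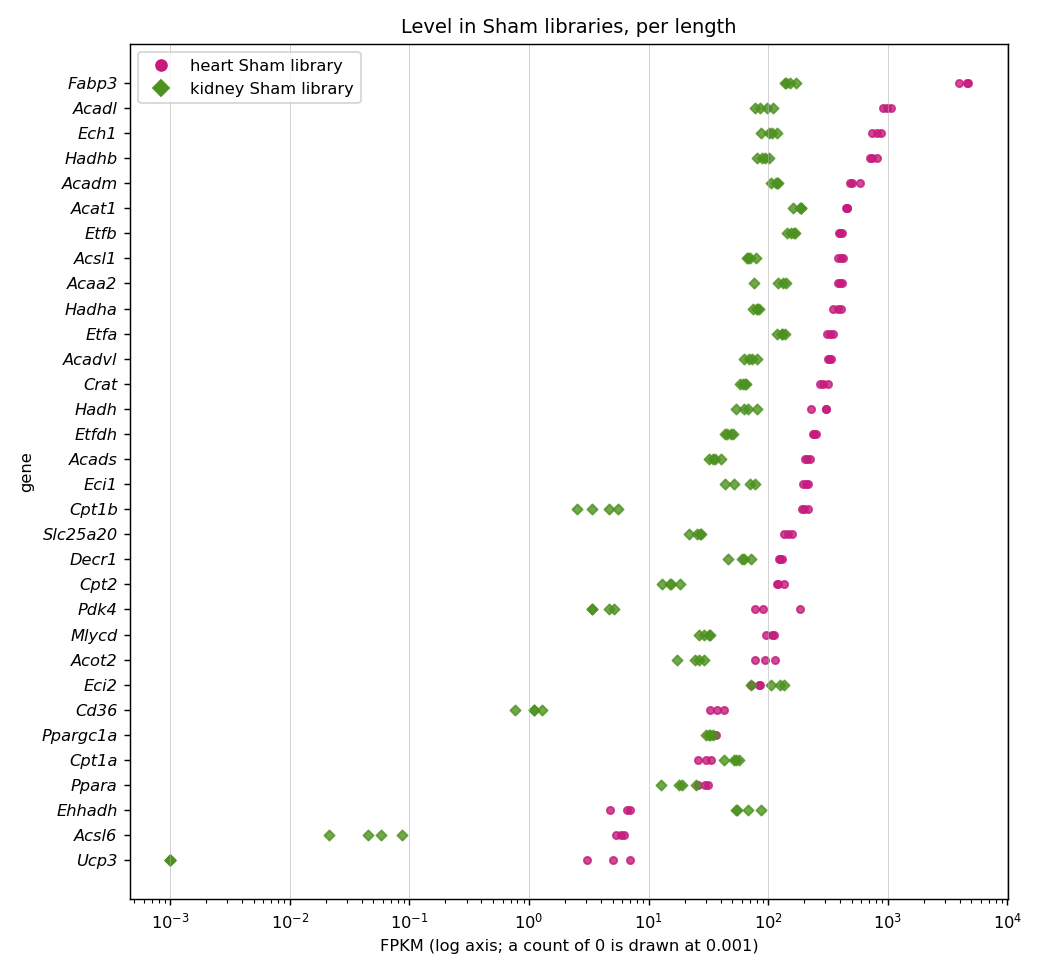
Level of each member in Sham heart and Sham kidney libraries, in counts per length and depth (FPKM, log axis; a count of 0 is drawn at 0.001), ordered by the Sham heart mean. Fabp3 stands highest in the heart at 4398 and Acat1 in the kidney at 180.0, and Eci2, Cpt1a and Ehhadh are the members with the higher mean in the kidney.

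Compared per length, in FPKM (mean ± SD), Fabp3, the cytosolic fatty acid carrier of muscle, led the Sham heart at 4398 ± 394 (n = 3). The long-chain dehydrogenase Acadl followed at 984 ± 78.3, then Ech1, a dienoyl-CoA isomerase, at 807 ± 74.8 and Hadhb at 751 ± 53.8. Acadl and Ech1 were separated by more than their spread, and Ech1 and Hadhb were not. Etfb at 402 ± 12.9, Acsl1 at 402 ± 16.2 and the thiolase Acaa2 at 398 ± 11.9 could not be ordered. At the bottom stood Ehhadh at 6.09 ± 1.15, Acsl6 at 5.78 ± 0.462 and Ucp3 at 5.04 ± 2.00, also within each other's spread.

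In the Sham kidney (n = 4) the order was another one. Acat1, a mitochondrial thiolase that also handles ketone bodies, led at 180.0 ± 12.4 FPKM, followed by Etfb at 157 ± 10.6 and Fabp3 at 150.3 ± 15.5. The ranges of these 3 overlapped from one to the next. Ehhadh, the bifunctional enzyme of peroxisomes, stood at 65.6 ± 15.8 FPKM in the kidney, and Cd36 at 1.06 ± 0.218. Ucp3, an uncoupling protein of muscle mitochondria, had 0 counts in all 4 Sham kidneys and 446 in the Sham hearts. With 3 counts over the 4 kidney libraries as the limit that a count of 0 allows, Ucp3 was at least 204-fold higher in the heart.

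The isoforms of the outer carnitine palmitoyltransferase split between the organs. Cpt1b, the muscle form of the outer carnitine palmitoyltransferase, was 5.66 log2 units higher in the heart (SE 0.22, adjusted p = 2.08e-16). Cpt1a, the liver form, was lower there, with a log2 difference of -0.78 (SE 0.19, adjusted p = 0.00101). The other member lower in the heart was Ehhadh, at -3.43 (SE 0.22, adjusted p = 1.97e-12). The acyl-CoA synthetases did not split. Acsl1 was higher in the heart by 2.51 (edgeR adjusted p = 3.03e-14). Acsl6 differed by 6.80 (SE 0.36, adjusted p = 5.23e-14), Cd36 by 5.13 (SE 0.23, adjusted p = 2.73e-15), Fabp3 by 4.87 (SE 0.19, adjusted p = 1.24e-16) and Pdk4, which blocks pyruvate entry, by 4.83 (SE 0.35, adjusted p = 6.12e-11), all higher in the heart. The members that did not pass were Eci2 at -0.45 (SE 0.23, adjusted p = 0.079) and Ppargc1a at 0.12 (SE 0.10, adjusted p = 0.269). The kidney value of Cpt1b is uncertain, since 368 of its exonic bases lie on the same strand within Chkb, which itself had 19.4 to 21.2 CPM in Sham kidneys.

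In the heart, nephrectomy with a fistula came with lower transcripts of the acyl-CoA dehydrogenases Acadvl, Acadm and Acads, of Hadhb, of the auxiliary enzymes Eci1 and Decr1 and of the electron transfer flavoprotein's beta subunit, and with higher Cpt2, Eci2, Acsl6 and Ppargc1a. In AVF+NX against Sham hearts, 15 of 32 members passed the test (46.9%), where 34.1% of all 12794 genes did. Of these, 11 were lower (34.4%, with 18.6% of all genes lower) and 4 higher (12.5%, with 15.4% of all genes higher), so the higher members came at about the rate of any gene. The median log2 fold change was -0.10 over the members and 0.01 over all genes. By step, 8 of 8 genes of the beta-oxidation spiral were below zero and 4 passed. Of the auxiliary enzymes 2 were lower and 1 higher, of the electron carriers 1 lower, of the regulators 2 lower and 1 higher, and of the 5 carnitine shuttle genes 1 higher. In bulk tissue, fewer cells of a type and less RNA per cell cannot be told apart, here and in all that follows.

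**Figure D2:**
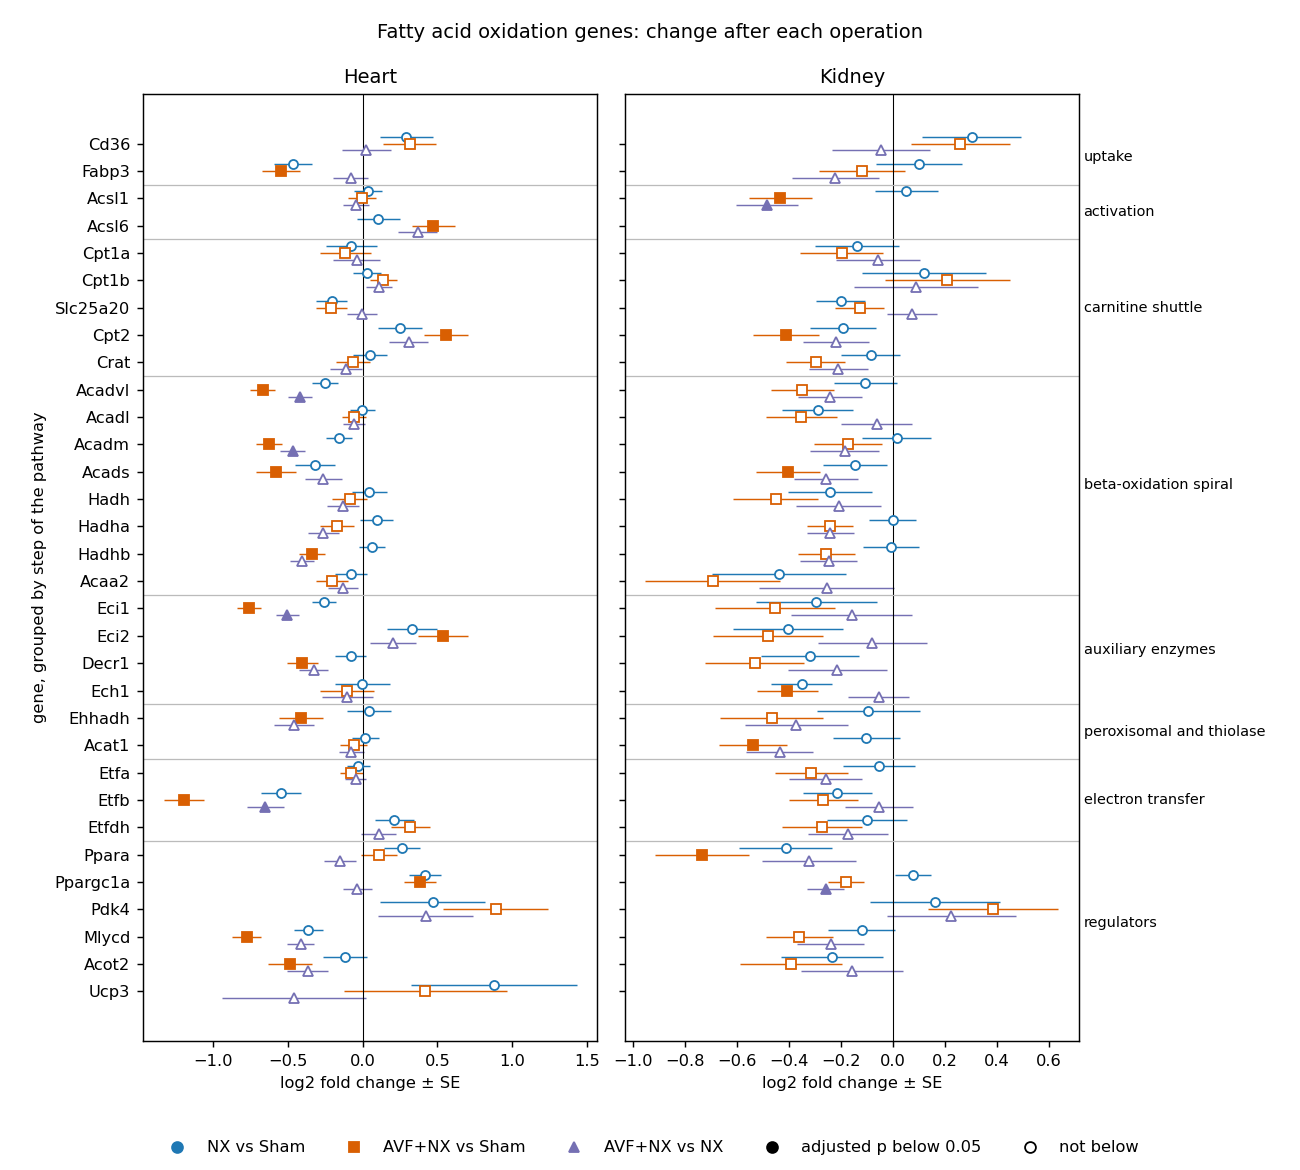
Log2 fold change (± SE) of each member for AVF+NX against Sham, NX against Sham and AVF+NX against NX, by step, in heart and kidney; filled points passed the test at an adjusted p below 0.05, and the panels have different scales. The 8 heart spiral genes all lie below zero in AVF+NX against Sham, Etfb is the lowest member at -1.20, and 27 of 30 kidney members lie below zero in the same comparison.

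At the uptake step, Fabp3 measured 2807, 2745 and 2393 CPM in the 3 Sham hearts, 2095, 1936, 1794 and 1847 in the 4 NX hearts and 1535, 1563, 2213 and 1946 in the 4 AVF+NX hearts. Both operated groups lay below every Sham library and overlapped each other. Fabp3 fell by 0.55 on the log2 scale in AVF+NX against Sham (SE 0.13, adjusted p = 0.00683). The value for NX against Sham was -0.47 (SE 0.13, adjusted p = 0.152). Cd36, the membrane carrier, measured 290.1, 334 and 261 CPM in Sham, 299, 401, 468 and 275 in NX and 301, 382, 431 and 354 in AVF+NX. Its groups overlapped, with a log2 difference of 0.32 between AVF+NX and Sham (SE 0.18, adjusted p = 0.182). Cd36 shares exonic bases on the same strand with LOC103690020 and a gene without a symbol, 2476 bases summed over both. In the heart these neighbours reached at most 1.31 and 0.786 CPM. Fabp3 shares 47 bases with Zcchc17 on the other strand. The split of the reads of Cd36 and Fabp3 is therefore uncertain.

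Of the acyl-CoA synthetases, Acsl1, the main long-chain form of heart, was flat: 1267, 1326 and 1231 CPM in Sham, 1139, 1454, 1408 and 1229.9 in NX and 1218, 1255, 1344 and 1264 in AVF+NX. Its log2 difference between AVF+NX and Sham was -0.00 (SE 0.09, adjusted p = 0.974). Acsl6, a form that prefers polyunsaturated chains, measured 25.3, 28.2 and 29.97 CPM in Sham, 30.1, 29.85, 29.59 and 30.01 in NX and 47.8, 34.3, 29.8 and 43.0 in AVF+NX. It rose by 0.47 in AVF+NX against Sham (SE 0.14, adjusted p = 0.0222), while AVF+NX library 3 stayed inside the Sham range.

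In the carnitine shuttle, the outer enzymes did not pass the test. Cpt1b measured 573, 644 and 603 CPM in Sham, 559.9, 652, 691 and 577 in NX and 654, 634, 672 and 714 in AVF+NX. Cpt1a measured 102, 114 and 88.9 CPM in Sham, 86.5, 108, 119.6 and 71.0 in NX and 80.9, 83, 110.1 and 102 in AVF+NX. Groups overlapped for both, with log2 differences between AVF+NX and Sham of 0.14 for Cpt1b (SE 0.09, adjusted p = 0.256) and -0.11 for Cpt1a (SE 0.17, adjusted p = 0.622). Cpt2, the inner palmitoyltransferase that rebuilds acyl-CoA in the matrix, measured 223, 257 and 232 CPM in Sham, 215, 318, 353 and 242 in NX and 344, 350.1, 370.5 and 332 in AVF+NX. Every AVF+NX library lay above every Sham library, and the NX hearts were split, with libraries 2 and 3 high and 1 and 4 at the Sham level. Cpt2 rose by 0.56 in AVF+NX against Sham (SE 0.15, adjusted p = 0.0116).

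The acyl-CoA dehydrogenases catalyse the first step of each turn, by chain length. Acadvl, the very long-chain form, measured 545, 575 and 562 CPM in Sham, 501, 437, 432 and 515 in NX and 364, 344, 348 and 355 in AVF+NX. The 3 groups did not overlap, with NX between the others. Acadvl fell by 0.67 in AVF+NX against Sham (SE 0.08, adjusted p = 0.00113). Acadm, the medium-chain form, measured 736, 897 and 782 CPM in Sham, 769, 716, 714 and 686 in NX and 522, 524, 485 and 555 in AVF+NX. The AVF+NX hearts lay below all others, and Sham and NX overlapped. Acadm fell by 0.63 (SE 0.09, adjusted p = 0.00174). Acads, the short-chain form, measured 283, 310.1 and 297 CPM in Sham, 297, 184, 211 and 263 in NX and 202, 188, 195 and 211 in AVF+NX. NX libraries 2 and 3 were at the AVF+NX level and NX library 1 at the Sham level. Acads fell by 0.58 (SE 0.13, adjusted p = 0.00696). Acadl, the long-chain form and the most abundant of the 4 per length, measured 1041, 1228 and 1141 CPM in Sham, 1147, 1131, 1156 and 1110.1 in NX and 1068, 1053, 1169 and 1076 in AVF+NX. Its 3 groups overlapped, with a log2 difference of -0.06 between AVF+NX and Sham (SE 0.08, adjusted p = 0.599).

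Later in the spiral, Hadhb, which carries the thiolase of the trifunctional protein, measured 1078, 1245 and 1139 CPM in Sham, 1164, 1293, 1182 and 1189 in NX and 820.4, 916, 974 and 939 in AVF+NX. All AVF+NX hearts lay below all Sham and NX hearts. Hadhb fell by 0.34 in AVF+NX against Sham (SE 0.09, adjusted p = 0.0112). Its partner Hadha, which carries the hydratase and the hydroxyacyl dehydrogenase, measured 802, 938 and 899 CPM in Sham, 836, 1107, 1017 and 797 in NX and 759, 782, 783 and 805 in AVF+NX. Hadha overlapped between the groups, with a log2 difference of -0.17 (SE 0.11, adjusted p = 0.252).

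Auxiliary enzymes reshape the double bonds of unsaturated chains so that they can pass through the spiral. Eci1, the mitochondrial enoyl-CoA isomerase, measured 165, 173 and 158 CPM in Sham, 134, 137, 143 and 139 in NX and 88.1, 101, 106 and 95 in AVF+NX. The 3 groups did not overlap. Eci1 fell by 0.76 in AVF+NX against Sham (SE 0.08, adjusted p = 0.000613). Decr1, the dienoyl-CoA reductase, measured 113, 120.2 and 114 CPM in Sham, 105, 120.4, 117 and 95.9 in NX and 78.2, 84.2, 101 and 86.6 in AVF+NX. It lay below every Sham heart in AVF+NX and fell by 0.40 (SE 0.10, adjusted p = 0.0109). Eci2, an isomerase found in peroxisomes as well as mitochondria, measured 184, 184 and 156 CPM in Sham, 159.8, 251, 284 and 182 in NX and 239, 241, 278 and 253 in AVF+NX. It went the other way from Eci1: every AVF+NX heart was above every Sham heart, and NX libraries 2 and 3 were at the AVF+NX level. Eci2 rose by 0.53 (SE 0.17, adjusted p = 0.027). Ech1, which isomerises dienoyl-CoA, measured 747, 816 and 681 CPM in Sham, 536, 906, 943 and 604 in NX and 600.4, 655, 814 and 716 in AVF+NX. Its groups overlapped, with a log2 difference of -0.10 (SE 0.18, adjusted p = 0.683).

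Ehhadh was low in the heart, at 11.7, 17.0 and 16.1 CPM in Sham, 17.5, 14.3, 15.0 and 14.7 in NX and 9.48, 12.6, 11.2 and 11.3 in AVF+NX. The AVF+NX hearts were below all NX hearts and overlapped Sham library 1, and Ehhadh fell by 0.41 against Sham (SE 0.15, adjusted p = 0.0434). Acat1 measured 782, 782 and 777 CPM in Sham, 817, 769, 845 and 731 in NX and 701, 709, 733 and 857 in AVF+NX. A single AVF+NX heart was above and the others below the narrow Sham range, with a log2 difference of -0.06 (SE 0.09, adjusted p = 0.646).

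Among the electron carriers the subunits of the flavoprotein parted. Etfb measured 297, 281 and 287 CPM in Sham, 244, 156, 169 and 223 in NX and 122, 121, 124 and 137 in AVF+NX. The groups did not overlap, and the NX hearts again held a lower pair, libraries 2 and 3, and a higher pair, 1 and 4. Etfb had the largest fall of the members in AVF+NX against Sham, 1.20 on the log2 scale (SE 0.13, adjusted p = 0.00072). Etfa, the alpha subunit of the same dimer, differed by -0.08 (SE 0.08, adjusted p = 0.459). Etfdh, the membrane oxidoreductase that takes the electrons on, measured 419.9, 440.3 and 421 CPM in Sham, 415, 615, 526 and 422 in NX and 489, 507, 597 and 539 in AVF+NX. All AVF+NX hearts were above all Sham hearts, with a log2 difference of 0.32 that missed the threshold (SE 0.13, adjusted p = 0.0699).

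**Figure D3:**
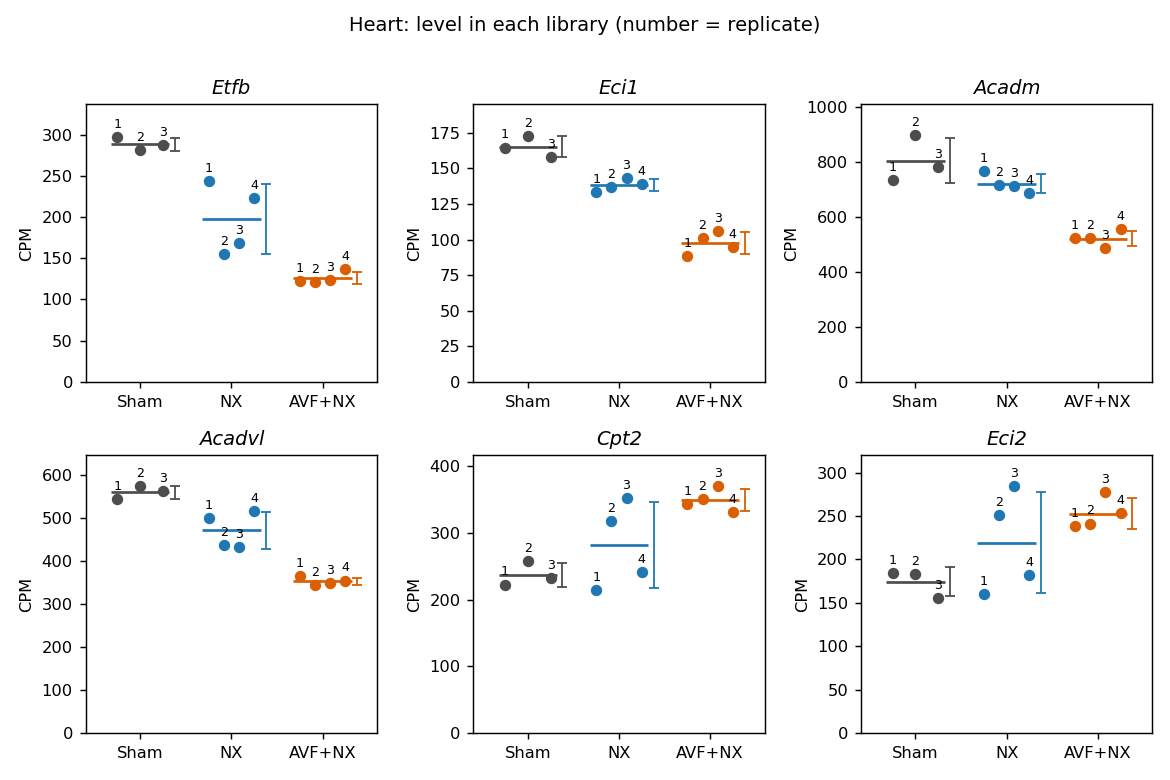
CPM in every heart library for Etfb, Eci1, Acadm, Acadvl, Cpt2 and Eci2 (points; line, mean; bar, SD; n = 3 Sham, 4 NX, 4 AVF+NX). Etfb, Eci1 and Acadvl form 3 groups without overlap, from 281 to 297 down to 121 to 137 for Etfb, and the NX libraries of Cpt2 and Eci2 are split into 2 high and 2 low.

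Of the regulators, Mlycd, the malonyl-CoA decarboxylase that relieves the block on Cpt1, measured 181, 173 and 157 CPM in Sham, 149, 125, 134 and 122 in NX and 91.2, 96.1, 109 and 102 in AVF+NX. The 3 groups did not overlap. Mlycd fell by 0.77 in AVF+NX against Sham (SE 0.10, adjusted p = 0.00112). Acot2, a mitochondrial thioesterase that frees fatty acids from coenzyme A, measured 143, 213 and 176 CPM in Sham, 147, 169, 169 and 168 in NX and 121, 128, 156 and 101 in AVF+NX. AVF+NX and Sham overlapped, and Acot2 fell by 0.48 (SE 0.15, adjusted p = 0.0226). Acot2 shares 374 exonic bases with Heatr4 on the other strand.

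Ppargc1a, which encodes the coactivator PGC-1 alpha, measured 74.0, 79.5 and 75.4 CPM in Sham, 103, 99.4, 118 and 87.3 in NX and 88.3, 105, 95 and 110.2 in AVF+NX. Both operated groups were above every Sham heart and overlapped each other. Ppargc1a rose by 0.38 in AVF+NX against Sham (SE 0.11, adjusted p = 0.0173), against 0.42 in NX (SE 0.11, adjusted p = 0.148). Ppara, the receptor PPAR alpha, measured 42.9, 52.5 and 50.1 CPM in Sham, 53.0, 65.7, 52.0 and 61.7 in NX and 49.6, 60.8, 47.3 and 51.4 in AVF+NX. Its groups overlapped, with a log2 difference of 0.11 in AVF+NX against Sham (SE 0.12, adjusted p = 0.484). Pdk4 measured 94.8, 231 and 113 CPM in Sham, 227, 181, 267 and 132 in NX and 166, 286, 281 and 348 in AVF+NX. The Sham hearts were far apart from each other, and the log2 difference of 0.89 did not pass (SE 0.35, adjusted p = 0.0732). Without Sham library 2 Pdk4 passed at 1.39, and without AVF+NX library 1 at 1.08. The 6 members not given by library, Slc25a20, Crat, Hadh, Acaa2, Etfa and Ucp3, had log2 differences from -0.21 to 0.42 in AVF+NX against Sham and a smallest adjusted p of 0.133.

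Counted without a model, all AVF+NX hearts lay below all Sham hearts in 10 of 32 members, as they did in 24.6% of all genes, and above in 4, as in 22.8% of all genes. The member below without passing the test was Acaa2.

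Nephrectomy alone gave no call in the heart. In NX against Sham hearts edgeR called 0 of 32 members and 0% of all genes, and 8 members and 2662 genes had an unadjusted p below 0.05. DESeq2 called 4 members (3.1% of all genes) and limma voom, run with quality weights, 7 (17.7%). The median log2 fold change was 0.03 over the members and -0.01 over all genes. NX libraries lay wholly below Sham in 5 members, Fabp3, Acadvl, Eci1, Etfb and Mlycd (8.94% of all genes), and above in Ppargc1a alone (6.92% of all genes). For 12 of the 15 members called in AVF+NX against Sham, the NX mean lay between the other means, the exceptions being Hadhb, Ehhadh and Ppargc1a.

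The hearts with a fistula on top of nephrectomy were lower than those with nephrectomy alone for 4 members. AVF+NX against NX called 4 of 32 members (12.5%), all lower, where 0.336% of all genes passed and 0.164% were lower. Acadvl fell by 0.42 (SE 0.08, adjusted p = 0.0443), Acadm by 0.47 (SE 0.08, adjusted p = 0.0378), Eci1 by 0.50 (SE 0.08, adjusted p = 0.0347) and Etfb by 0.65 (SE 0.13, adjusted p = 0.0471), each close to the threshold. Hadhb at -0.40 (SE 0.08, adjusted p = 0.0514) and Mlycd at -0.41 (SE 0.09, adjusted p = 0.0612) lay just outside it. In 25 of 32 members the difference was below zero, with a median of -0.11 against -0.00 over all genes, and 7 were without overlap and lower (5.1% of all genes), with 0 higher (4.96%). The count fell to 0 without AVF+NX library 1, 2 or 3 or NX library 1 or 4 and to 2 without AVF+NX library 4, and was 6 without NX library 2 or 3. In addition, 0 members passed with limma voom or in a fit of the 2 groups alone, and DESeq2 called 8 (7.12% of all genes). With limma voom and in the fit of the 2 groups 11 members each had an unadjusted p below 0.05. The share of all genes at that p is not given for these fits. This comparison and AVF+NX against Sham share the AVF+NX hearts.

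The heart calls moved with other differences between the libraries. Sequencing depth was higher in 3 AVF+NX hearts and in NX libraries 2 and 3. With every library thinned to the shallowest total, a setting added after the data had been seen, 13 of the 15 calls against Sham held and Acsl6 and Ehhadh did not. With log2 total count as a covariate 1 member, Eci1, passed, as did 0.0156% of all genes. An index of small structured RNAs (mean log2 CPM of 63 such genes), which a poly(A) library should hold little of, was 2.03 to 2.09 in Sham, 2.27 and 1.91 in NX libraries 1 and 4, 0.28 and 0.65 in NX libraries 2 and 3 and 0.41 to 1.02 in AVF+NX. With that index as a covariate 7 members were lower and 0 higher, with 0.664% of all genes called.

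An index of 16 circadian clock genes (their first principal component) ran from -4.62 to -2.43 in Sham, from -1.76 to 3.72 in NX and was 4.42, 4.43, -0.14 and -2.38 in the AVF+NX hearts. With it as a covariate 0 members and 0.0391% of all genes passed in edgeR. An unadjusted p below 0.05 was reached by 14 members, with no share of all genes given for that p. NX libraries 2 and 3, which resembled the AVF+NX hearts in depth and small RNA, also lay nearer to them than libraries 1 and 4 for Cpt2, Eci2, Acadvl, Acads and Etfb. They lay farther for Decr1, and by a narrow margin for Acsl6 and Acot2. The NX hearts spanned only 29.59 to 30.1 CPM for Acsl6, and all but library 1 had 168 to 169 for Acot2. Of the other called members, 6 lower and 1 higher were mixed. Depth, small RNA content and clock genes differ with the operation in these hearts and cannot be told apart from it for the calls that a covariate removed. Leaving out each library in turn gave 10 to 15 members called, of which 9 to 15 were among the original 15. The fewest came without Sham library 2. Fabp3, Acadvl, Acadm, Acads, Eci1, Etfb and Mlycd passed every time.

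Markers of several cell types were read in the hearts. Of all genes 15.4% were higher and 18.6% lower in AVF+NX against Sham hearts (34.1% in either direction). Of 13 cardiomyocyte markers 1 was higher and 3 lower in AVF+NX against Sham hearts, with summed levels of 86925 to 103800.1 CPM in Sham, 94204 to 102256 in NX and 84021 to 94335 in AVF+NX and none at 0. Of 9 fibroblast markers 6 were higher, with sums of 1712 to 2229 in Sham, 1858 to 2716 in NX and 2594 to 4018 CPM in AVF+NX and none at 0. Of 7 endothelial markers 4 were higher, with sums of 765 to 852 CPM in Sham, 845 to 988 in NX and 958 to 1117 in AVF+NX. Of 8 tested markers of dividing cells 5 were higher, with sums over the list of 11.7 to 12.2, 15.97 to 41.2 and 24.1 to 56.0 CPM in the same order. Of 11 macrophage markers 3 were higher and 1 lower, with sums of 245 to 258, 231 to 385 and 340.2 to 424 CPM. None of these markers was at 0 in every library of a group. The part of these cells in the members' changes was not tested.

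**Figure D4:**
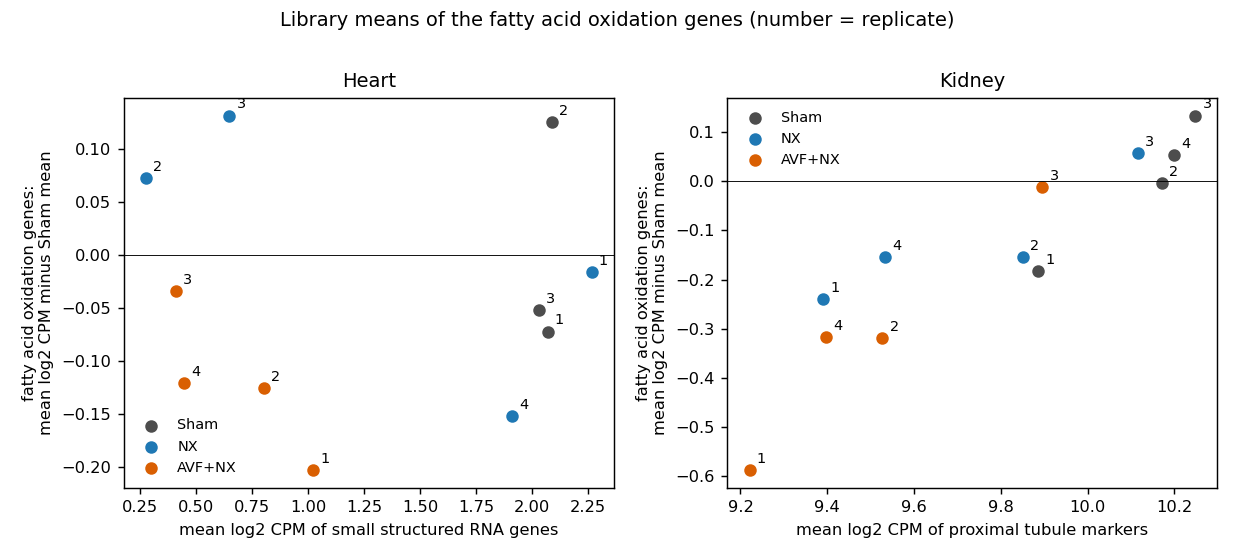
Mean log2 CPM of the members in each library, minus the Sham mean of the organ, against the small RNA index in the heart and against the mean log2 CPM of 18 proximal tubule markers in the kidney. Heart libraries spread from -0.20 to 0.13, and kidney AVF+NX library 1 is lowest on both axes at -0.59.

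In the kidney nearly the whole set lay below Sham after nephrectomy with a fistula and, of the members that passed the test, Ppara and Acat1 fell most. In AVF+NX against Sham kidneys 6 of 30 members passed, all lower (20%, with 9.18% of all genes lower), and 0 were higher, where 15.9% of all genes were. In either direction 25.1% of all 14322 genes passed. The count depended on the fit: DESeq2 called 13 members (23.9% of all genes), limma voom 19 (34.4%) and edgeR with the replicate number as a block 20 (29.5%), all lower and each including the 6. Of the 30 members 27 lay below zero, with a median log2 fold change of -0.35 against -0.01 over all genes. The medians by step were 0.07 for uptake, -0.35 for the spiral, -0.47 for the auxiliary enzymes, -0.20 for the carnitine shuttle, -0.50 for the peroxisomal enzyme and thiolase, -0.27 for the electron carriers and -0.36 for the regulators, and the 1 synthetase tested, Acsl1, was at -0.43. Groups did not overlap in 3 members, all lower (11.2% of all genes), and in 0 members higher (16.4% of all genes).

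At uptake and activation, Cd36 was scarce, at 9.68, 16.2, 14.0 and 13.9 CPM in the 4 Sham kidneys, 17.3, 14.6, 13.6 and 20.7 in NX and 11.6, 16.2, 18.6 and 18.2 in AVF+NX. Fabp3 measured 166, 147, 132 and 136 CPM in Sham, 161, 179, 170.4 and 114 in NX and 103, 138, 174 and 120.3 in AVF+NX. Neither passed, with log2 differences in AVF+NX against Sham of 0.26 for Cd36 (SE 0.19, adjusted p = 0.35) and -0.12 for Fabp3 (SE 0.17, adjusted p = 0.635). Acsl1 measured 336, 343, 401 and 356 CPM in Sham, 395, 390.2, 395 and 309 in NX and 231, 257, 328 and 249 in AVF+NX. Its AVF+NX kidneys lay below every Sham kidney, and it fell by 0.43 against Sham (SE 0.12, adjusted p = 0.02). Against NX it fell by 0.48 (SE 0.12, adjusted p = 0.0352), with AVF+NX library 3 above NX library 4. Acsl6 had 0 to 12 counts and Ucp3 0 to 3 counts per kidney library, too few to test.

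In the carnitine shuttle, Cpt1a measured 233, 282, 314 and 295 CPM in Sham, 242, 268, 246 and 264 in NX and 167, 225, 319.5 and 269 in AVF+NX. Cpt1b measured 26.7, 16, 12.1 and 22.6 CPM in Sham, 23.8, 16.3, 17.5 and 25.7 in NX and 15.6, 25, 24.5 and 24 in AVF+NX. Both overlapped, with log2 differences in AVF+NX against Sham of -0.20 for Cpt1a (SE 0.16, adjusted p = 0.4) and 0.21 for Cpt1b (SE 0.24, adjusted p = 0.565). Cpt2 measured 39.3, 46.1, 55.2 and 46.6 CPM in Sham, 38.4, 39.4, 49.6 and 36.8 in NX and 30.9, 34.4, 41.5 and 34.2 in AVF+NX. It fell by 0.41 against Sham (SE 0.13, adjusted p = 0.0312), the opposite of its rise in the heart, and AVF+NX library 3 was the one inside the Sham range.

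In the spiral, Acads measured 71.3, 77.4, 90.6 and 80.7 CPM in Sham, 64.2, 71.8, 89.5 and 64.2 in NX and 56.0, 57.8, 72.6 and 55.4 in AVF+NX. Again AVF+NX library 3 alone overlapped Sham, and Acads fell by 0.40 (SE 0.12, adjusted p = 0.03). Acadvl measured 175, 189, 221 and 202 CPM in Sham, 168, 174, 208 and 180.4 in NX and 123, 156, 188 and 151 in AVF+NX. Its log2 difference of -0.35 missed the threshold (SE 0.12, adjusted p = 0.0527). Acadm measured 261, 287, 293 and 302 CPM in Sham, 246, 259.6, 333 and 315 in NX and 200.5, 260.3, 309 and 244 in AVF+NX. Hadhb measured 199, 218, 248 and 233 CPM in Sham, 212, 213, 249.5 and 219 in NX and 158, 187, 224 and 183 in AVF+NX. For both, groups overlapped, with log2 differences of -0.17 for Acadm (SE 0.13, adjusted p = 0.366) and -0.26 for Hadhb (SE 0.11, adjusted p = 0.104).

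Of the auxiliary enzymes Ech1 passed. It measured 129, 149, 176 and 161 CPM in Sham, 113, 123, 134 and 113 in NX and 103, 116, 141 and 105 in AVF+NX. Ech1 fell by 0.41 (SE 0.12, adjusted p = 0.0231), with NX at the AVF+NX level and a log2 difference of -0.35 between NX and Sham (SE 0.12, adjusted p = 0.148). Eci1 measured 56.4, 66.3, 99.7 and 90.3 CPM in Sham, 56.4, 56.7, 82.1 and 60.2 in NX and 42.8, 54.3, 85.4 and 46.1 in AVF+NX. Eci2 measured 252, 437, 469.6 and 371 CPM in Sham, 215, 292, 351 and 298 in NX and 239, 239, 376 and 241 in AVF+NX. Decr1 measured 67.6, 88.2, 104 and 91.6 CPM in Sham, 51.7, 71.6, 77.5 and 81.2 in NX and 45.7, 59.7, 83.1 and 55.0 in AVF+NX. The Sham kidneys themselves spread widely for these 3, with library 1 lowest. Their log2 differences in AVF+NX against Sham were -0.45 for Eci1 (SE 0.23, adjusted p = 0.177), -0.48 for Eci2 (SE 0.21, adjusted p = 0.115) and -0.53 for Decr1 (SE 0.19, adjusted p = 0.0573).

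Acat1, the most abundant member of the Sham kidney, measured 448, 515, 516 and 515 CPM in Sham, 458, 447, 551 and 404 in NX and 268, 359, 412 and 335 in AVF+NX. All AVF+NX kidneys were below all Sham kidneys, and Acat1 fell by 0.54 (SE 0.13, adjusted p = 0.00986). Ehhadh measured 209.9, 213, 342 and 266 CPM in Sham, 177, 246, 313 and 230.2 in NX and 156, 199.9, 232 and 157 in AVF+NX. AVF+NX library 3 overlapped Sham, and the log2 difference was -0.47 (SE 0.20, adjusted p = 0.105). Etfb measured 165, 192, 187 and 179 CPM in Sham, 157, 161, 165 and 141 in NX and 117, 127, 190.2 and 165 in AVF+NX. Etfdh measured 124, 128, 138 and 145 CPM in Sham, 111, 122, 161 and 106 in NX and 84.6, 112, 141 and 104 in AVF+NX. Both electron carriers overlapped between groups, each with a log2 difference of -0.27 (SE 0.13, adjusted p = 0.157 for Etfb, and SE 0.15, adjusted p = 0.216 for Etfdh).

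Of the regulators, Ppara measured 34.3, 48.5, 67.2 and 51.7 CPM in Sham, 32.7, 35.8, 43.6 and 39.5 in NX and 23.3, 33.4, 32.3 and 32.5 in AVF+NX. All AVF+NX kidneys were below all Sham kidneys. Ppara had the largest fall of the kidney members, 0.74 on the log2 scale (SE 0.18, adjusted p = 0.0106). Ppargc1a measured 120.4, 105, 114 and 110.5 CPM in Sham, 119, 116, 119.9 and 119 in NX and 90.3, 96.4, 103 and 106 in AVF+NX. It was the one member whose AVF+NX kidneys all lay below the NX kidneys (4.31% of all genes), with 0 members above (7.49%), and it fell by 0.26 against NX (SE 0.07, adjusted p = 0.0463). Against Sham its log2 difference was -0.18 (SE 0.07, adjusted p = 0.0741).

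The other regulators overlapped. Mlycd measured 68.8, 84.4, 82.6 and 75.1 CPM in Sham, 58.9, 66.6, 76.4 and 83.6 in NX and 48.7, 58.8, 70.6 and 64.3 in AVF+NX. Acot2 measured 52.4, 73.4, 87.4 and 78.8 CPM in Sham, 48.7, 50.3, 74.7 and 74.2 in NX and 45.5, 52.4, 73.3 and 51.6 in AVF+NX. Pdk4 measured 10.3, 9.21, 6.73 and 6.65 CPM in Sham, 12.6, 8.39, 8.82 and 7.17 in NX and 9.79, 9.21, 7.67 and 16.3 in AVF+NX. None of the 3 passed, with log2 differences of -0.36 for Mlycd (SE 0.13, adjusted p = 0.056), -0.39 for Acot2 (SE 0.20, adjusted p = 0.165) and 0.39 for Pdk4 (SE 0.25, adjusted p = 0.284). The 7 remaining members, Slc25a20, Crat, Acadl, Hadh, Hadha, Acaa2 and Etfa, had log2 differences from -0.69 to -0.13 in AVF+NX against Sham and a smallest adjusted p of 0.0599.

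**Figure D5:**
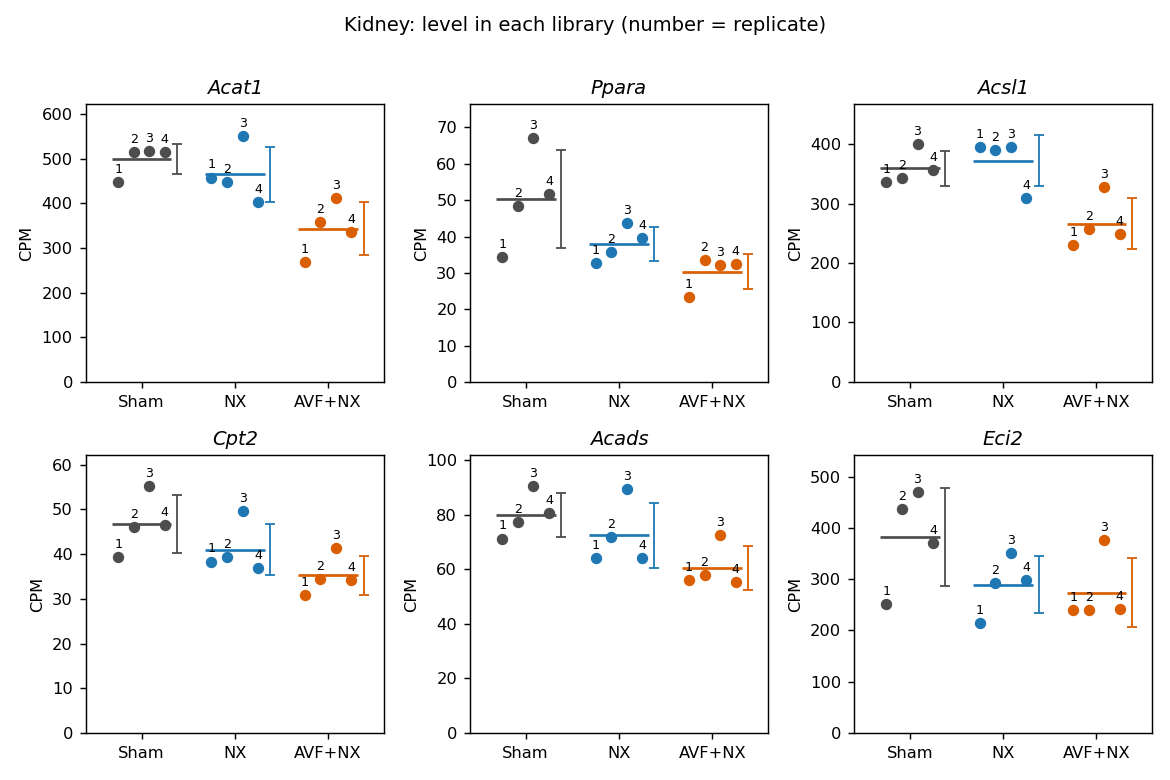
CPM in every kidney library for Acat1, Ppara, Acsl1, Cpt2, Acads and Eci2 (points; line, mean; bar, SD; n = 4 per group). Acat1, Ppara and Acsl1 are lower in all AVF+NX libraries than in all Sham libraries, and AVF+NX library 3 is the high point of its group for Acads at 72.6 and Eci2 at 376.

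Nephrectomy alone gave no call in the kidney either. In NX against Sham kidneys edgeR called 0 of 30 members and 1.31% of all genes (0.859% higher and 0.447% lower). In that fit 2 of 30 members and 2488 of 14322 genes had an unadjusted p below 0.05. DESeq2 and limma voom called no member. Of the 30 members 23 were below zero, with a median of -0.11 against 0.02 over all genes, and no member was without overlap in either direction (4.1% of all genes lower, 5.28% higher). For 5 of the 6 members called in AVF+NX against Sham the NX mean lay between the others, the exception being Acsl1. AVF+NX against NX called 2 of 30 members, Acsl1 and Ppargc1a (6.67%), both lower, where 1.2% of all genes were lower. There were 0 members higher, where 4.87% of all genes were. In either direction 6.07% of all genes were called. The count was 0 without AVF+NX library 1, 2 or 4 or NX library 1, 2 or 3 and 3 without AVF+NX library 3.

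Single libraries set much of the kidney result. AVF+NX libraries 1, 2 and 4 lay below the Sham range in 26, 26 and 23 of the 30 members, and library 3 in 4, with 22 of its values inside that range. Library 1 was the lowest AVF+NX kidney in 27 members and library 3 the highest in 26. The same numbers stood at the ends of the other groups: Sham library 1 was lowest in 26 members and Sham library 3 highest in 19, and NX library 1 was lowest in 18 and NX library 3 highest in 23. The count of members called in AVF+NX against Sham was 6 with all libraries, 20 without AVF+NX library 3 (30.6% of all genes) and 13 without Sham library 1 (23.6% of all genes). It was 4 without Sham library 2, 3 without Sham library 4, and 2 without Sham library 3 or any of AVF+NX libraries 1, 2 and 4, and Acat1 and Ppara passed each time. With the clock index as a covariate edgeR called 0 members and 7.58% of all genes. An unadjusted p below 0.05 was reached by 2 members, with no share of all genes given for that p. The clock index was -4.84 to -1.19 in Sham kidneys, 0.06 to 3.69 in NX and 3.87, 3.76, -1.39 and -1.96 in AVF+NX.

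Markers of the cell type that oxidises most fatty acid in the kidney moved with the members. Of all genes 15.9% were higher and 9.18% lower in AVF+NX against Sham kidneys. Of 18 proximal tubule markers 9 were lower in AVF+NX against Sham and 18 were below zero, with a median log2 difference of -0.64 and none at 0. Their summed level was 30523 to 37557 CPM in Sham, 20553 to 32960.2 in NX and 18284 to 27684 in AVF+NX. The marker mean was highest in AVF+NX library 3, at 9.90 log2 CPM against 9.22, 9.53 and 9.40 in libraries 1, 2 and 4. The members' mean relative to Sham was -0.01 in library 3 and -0.59, -0.32 and -0.32 in libraries 1, 2 and 4. Of 11 macrophage markers all 11 were higher, with sums of 309 to 397 CPM in Sham, 382 to 1206 in NX and 1237 to 2792 in AVF+NX and none at 0. Of 9 fibroblast markers 7 were higher, with sums of 834 to 1268, 1304 to 3792 and 3521 to 8304 CPM in the same order and none at 0. Of 12 markers of the loop and distal nephron 6 were lower and 10 below zero, with sums of 7571 to 8782 CPM in Sham, 7997 to 9721 in NX and 4973 to 7806 in AVF+NX and none at 0. Their mean log2 CPM was also lowest in AVF+NX library 1, at 7.74, and highest in library 3, at 8.25. All 10 markers of dividing cells were higher, with sums of 15.3 to 20.5, 52.0 to 85.5 and 76.2 to 141 CPM and none at 0. The part of this change in cell markers in the members' fall was not tested.

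The response to nephrectomy with a fistula was compared between the organs as the heart log2 fold change minus that of the kidney. In AVF+NX against Sham 8 of 32 members differed (25%, with 27.9% of all genes), a share near that of all genes. Of these, 7 were more positive in the heart (21.9%, with 13.3% of all genes) and 1 more negative (3.12%, with 14.6% of all genes). Cpt2 differed by 1.06 (SE 0.22, adjusted p = 0.00177), rising in the heart and falling in the kidney. Eci2 differed by 1.11 (SE 0.31, adjusted p = 0.0107), having risen in the heart while its kidney value of -0.48 did not pass. Ppara differed by 0.94 (SE 0.23, adjusted p = 0.00548) and Acat1 by 0.57 (SE 0.17, adjusted p = 0.0159), both having fallen in the kidney with no call in the heart.

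Ppargc1a differed by 0.65 (SE 0.14, adjusted p = 0.00174), Etfdh by 0.68 (SE 0.23, adjusted p = 0.0302) and Acsl1 by 0.52 (SE 0.18, adjusted p = 0.0305). Etfb was the member that fell further in the heart, with a difference of -0.84 (SE 0.19, adjusted p = 0.00279). Without each library in turn, Cpt2, Eci2, Acat1, Etfb, Ppara and Ppargc1a passed every time. Total count, small RNA and clock were not fitted as covariates for the organ differences. In the heart alone, the rises of Cpt2 and Eci2 did not pass with any of these covariates. For NX against Sham edgeR called 0 members different between the organs (0.158% of all genes, 0.0788% in each direction), with 5 at an unadjusted p below 0.05, 0 called by DESeq2 and 5 by limma voom. For AVF+NX against NX it called 0 (1.12% of all genes, 0.25% more positive and 0.867% more negative in the heart), as did DESeq2 and limma voom, with 4 at an unadjusted p below 0.05.

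A wider list of 81 other genes of fatty acid handling, also chosen with earlier results of these data known, was read beside the members. In AVF+NX against Sham hearts 8 of 66 tested were higher (12.1%, with 15.4% of all genes) and 21 lower (31.8%, with 18.6% of all genes), with a median log2 fold change of -0.17. The peroxisomal thiolase Acaa1a fell from 21.0 ± 3.10 CPM (SD, n = 3) to 9.01 ± 0.945 (n = 4), by 1.22 on the log2 scale (adjusted p = 0.00175). Pccb, a subunit of propionyl-CoA carboxylase, fell from 116 ± 6.61 to 80.6 ± 6.11 CPM (adjusted p = 0.00257), and Ppargc1b, the PGC-1 beta coactivator, from 65.0 ± 1.69 to 46.5 ± 4.39 (adjusted p = 0.00364). Against NX, 1 of the 66 passed, Pccb, which fell by 0.44 (adjusted p = 0.0488). These are calls of the main fit. With total count, small RNA or clock as a covariate, 0.0156%, 0.664% and 0.0391% of all genes passed in AVF+NX against Sham hearts. The wider list was not followed under these covariates.

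In AVF+NX against Sham kidneys 8 of 72 tested were higher (11.1%, with 15.9% of all genes) and 13 lower (18.1%, with 9.18% of all genes), with a median of -0.22. The uncoupling protein gene Ucp2 rose from 44.2 ± 5.95 to 135.7 ± 17.5 CPM (n = 4 each, adjusted p = 2.66e-05) and the binding protein gene Fabp5 from 12.1 ± 4.17 to 30.9 ± 5.71 (adjusted p = 0.000735). Angptl4, which inhibits lipoprotein lipase and is a known PPAR target, rose from 0.504 ± 0.459 to 8.51 ± 2.15 CPM (adjusted p = 0.00185), with 0 to 11 counts in the Sham kidneys. Tmlhe, the first enzyme of carnitine synthesis, fell from 212 ± 8.54 to 141 ± 22.0 CPM (adjusted p = 0.00433). Against NX, Ucp2 rose by 1.21 and Fabp5 by 1.03 on the log2 scale, and the estrogen-related receptor gene Esrrg fell by 0.36. In NX against Sham edgeR called 0 of these genes in either organ. An unadjusted p below 0.05 was reached by 12 of 66 in the heart (2662 of all 12794 genes). In the kidney it was reached by 15 of 72 (2488 of all 14322 genes). Between the organs, 9 of 74 were more positive (12.2%, with 13.3% of all genes) and 9 more negative (12.2%, with 14.6%) in the heart in AVF+NX against Sham.

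The authors' deposited tables of fold changes, read as the second named group against the first, call more members except for NX and AVF+NX kidneys. There both call 2. In the authors' deposited table for Sham and AVF+NX hearts 6 members were higher and 12 lower (19.5% and 20.8% of all genes listed), and for Sham and AVF+NX kidneys 0 were higher and 15 lower (18.1% and 13% of genes). In the authors' deposited table for NX and AVF+NX, 7 members were lower in hearts (1.91% of genes) and 2 in kidneys (1.7%), with 0 higher in both (1.49% and 6.16% of genes). In the authors' deposited tables for Sham and NX, 1 member was lower in each organ, with 0.255% of genes lower in hearts and 2.81% in kidneys, and 0 higher (0.471% and 3.04% of genes).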

How the data were processed

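RNA-seq libraries were 11 of heart and 12 of kidney from 6 groups. Reads were trimmed with Trimmomatic 0.36, aligned with STAR 2.5.2b and counted per gene with featureCounts of Subread 1.5.2, per the submitters' processing notes. The genome build, annotation and strand setting were not given in the sources used here. Deposited counts are whole numbers per gene. The authors' deposited tables add log2 fold changes, p-values and a normalised signal, which equals the count divided by 1 factor per library in 100% of the genes checked. No per-sample column was left unmapped.

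Counts were tested with edgeR 4.0.16 (R 4.3.3; TMM, filterByExpr, robust quasi-likelihood, Benjamini-Hochberg, threshold 0.05). The 3 groups of an organ shared 1 fit (12794 genes in heart, 14322 in kidney) and all libraries together for organ differences (15222). CPM used the TMM factors, FPKM also the length in the files. SE is the log2 fold change over the square root of F. The code was tested on simulated data. No 2 replicates agreed within sampling noise (chi-square per degree of freedom at least 6.49). Of the gene IDs, 15123 of 32552 carry a symbol. 

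Alternatives were DESeq2 1.42.0, limma voom 3.58.1 with quality weights, RLE scaling, no filter, a replicate block, covariates (total, small RNA, clock), length trend removal, only 2 groups, each library left out and, added later, thinning. The quality weights, 1 per library, apply wherever limma voom is named. The members and lists were chosen with earlier results of these data known. Members called in any comparison of operations or organ difference, plus Cd36, Cpt1a, Cpt1b, Ppara, Ppargc1a and Pdk4, are given by library, and of the other genes up to 4 with the smallest p per comparison. A gene that this rule names is not reported here. Hadha, Acaa2 and Etfa were named after their values were seen.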

Additional observations from a re-analysis of the deposited data

Results flagged for a closer look

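In 8 of 117 groups of 4 libraries 1 library stood far from the other 3 (Dixon's test at the 95% level, which chance passes in about 1 in 20 groups). In the kidney these were Acsl1 in NX library 4 at 309 CPM against 390.2 to 395, Cpt1b in AVF+NX library 1 at 15.6 against 24 to 25, Ppara in AVF+NX library 1 at 23.3 against 32.3 to 33.4 and Acat1 in Sham library 1 at 448 against 515 to 516. Eci1 in NX library 3 was high, at 82.1 CPM against 56.4 to 60.2. In AVF+NX library 3, Acads was high at 72.6 against 55.4 to 57.8 and Eci2 at 376 against 239 to 241. In the heart, Acot2 in NX library 1 was low at 147 against 168 to 169.

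The response to nephrectomy with a fistula differed between the organs in 8 of 32 members by the test of the difference itself. That was 25% of the members, near the 27.9% of all genes. No covariate was fitted in this test. Heart minus kidney, the log2 values were 0.52 for Acsl1, 1.06 for Cpt2, 1.11 for Eci2, 0.57 for Acat1, 0.68 for Etfdh, 0.94 for Ppara, 0.65 for Ppargc1a and -0.84 for Etfb.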

How the results depend on the processing

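No call reversed its direction under any alternative, and RLE scaling kept every call. Where an alternative's count has no share of all genes beside it, it shows only that the number called moved. Such a count is not a result about the members. Main counts of members called were 0 (heart NX against Sham), 15 (heart AVF+NX against Sham), 4 (heart AVF+NX against NX), 0, 6 and 2 (kidney, same order), and 0, 8 and 0 (organ differences for NX against Sham, AVF+NX against Sham and AVF+NX against NX). DESeq2 gave 4 (3.1% of all genes) for heart NX against Sham and 8 (7.12%) for heart AVF+NX against NX. For kidney AVF+NX against Sham it gave 13 (23.9%). The limma voom fit gave 7 (17.7% of all genes), 0 and 19 (34.4%) for the same. For the organ differences of NX and AVF+NX against Sham limma voom gave 5 and 14. In heart AVF+NX against Sham the covariates gave 1 (total count), 7 (small RNA, 6 of them among the 15) and 0 (clock) members. The shares of all genes were 0.0156%, 0.664% and 0.0391%. In heart AVF+NX against NX the covariates gave 0, 7 (the original 4 among them) and 1, and the fit of 2 groups 0. In kidney AVF+NX against Sham the clock covariate gave 0 (7.58% of all genes). In kidney AVF+NX against NX, no count filter gave 1, the small RNA covariate 0 and the fit of 2 groups 0. The cause was not tested.

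Leaving out each library gave 0 to 3 members for heart NX against Sham (3 without NX library 1) and 0 to 6 for heart AVF+NX against NX. It gave 2 to 20 for kidney AVF+NX against Sham and 0 to 3 for kidney AVF+NX against NX. The 20 came without AVF+NX library 3, with 30.6% of all genes called. The organ differences gave 0 to 1, 6 to 11 and 0 to 1.

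With the replicate number as a block, 2 members passed in heart AVF+NX against NX and 2 in kidney NX against Sham. In the kidney 20 passed in AVF+NX against Sham (29.5% of all genes) and 8 in AVF+NX against NX. The block gave 1 in the organ differences of NX against Sham and of AVF+NX against NX. It gave 15 in heart AVF+NX against Sham, 14 of them among the original 15. Same-numbered libraries correlated from -0.116 to 0.124 in heart and from -0.0748 to 0.382 in kidney. Not every pair was above 0.1, so the numbers were not treated as pairs. In the kidney, numbers 1 (0.14 to 0.26) and 3 (0.21 to 0.38) were above 0.1 in all 3 comparisons.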

Other observations

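A gene outside the members and chosen after its values were seen, Esrra, encodes the estrogen-related receptor alpha, a partner of PGC-1 alpha on oxidative genes. In the heart it had 135 ± 7.27 CPM in Sham (SD, n = 3), 77.1 ± 47.1 in NX and 34.9 ± 5.01 in AVF+NX (n = 4 each). The NX hearts ranged from 34.3 to 128 CPM. Esrra fell by 1.96 on the log2 scale in AVF+NX against Sham hearts (SE 0.40, edgeR adjusted p = 0.00639). This is the main fit. With total count, small RNA or clock as a covariate, 0.0156%, 0.664% and 0.0391% of all genes passed in that comparison. Esrra was not followed under these covariates. In the kidney it had 97.9 ± 6.94 CPM in Sham, 96.9 ± 5.01 in NX and 86.7 ± 12.5 in AVF+NX, and the difference between the organs was -1.69 (SE 0.38, adjusted p = 0.00323).

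Ucp2 differed between the organs the most clearly of the wider list. The response to nephrectomy with a fistula was -1.996 on the log2 scale, heart minus kidney (SE 0.19, edgeR adjusted p = 2.81e-06), having fallen in the heart from 522 ± 37.3 to 378 ± 24.2 CPM and risen in the kidney. Tmlhe went the other way, by 1.37 (SE 0.23, adjusted p = 0.000371), with 10.5 ± 0.625 CPM in Sham and 17.0 ± 1.11 in AVF+NX hearts.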
